A study of Homo sapiens with 6 samples.

Results

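The DNA repair genes described here are 53 genes of homologous recombination, the Fanconi anemia pathway, damage signaling and the neighboring repair pathways, out of 34834 genes with a quantified transcript. They were taken from a list of gene symbols for repair and damage response in ovarian cancer, and the rule for the list uses no expression value. RNA sequencing of SKOV3, an established human line from an ovarian carcinoma, addressed whether loss of the long non-coding RNA DNM3OS changes gene expression. Cells received 50 nM of a SMARTpool siRNA against DNM3OS (knockdown, n = 3) or 50 nM of a pool of non-targeting siRNA (control, n = 3), both by lipofection, for 48 h. All samples come from this one cell line, and no group was left untransfected. Nothing in the labels says whether samples of a group came from separate cultures, so p-values measure only the spread between these samples, which may be technical.

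Homologous recombination repairs DNA double-strand breaks from an intact sister copy. The MRE11, RAD50 and NBN complex senses and trims the broken end, the kinases ATM and ATR signal the damage, and BRCA1, PALB2 and BRCA2 bring in the recombinase that searches for the matching strand. Loss of this pathway is common in high-grade serous ovarian cancer and makes tumor cells sensitive to inhibitors of PARP1, while the competing pathway of non-homologous end joining rejoins ends without a template.

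The samples held between 1523046 and 1868325 estimated counts on genes, and 3 counts are worth 1.606 to 1.97 CPM, the unit that divides a count by the size of its library (before TMM scaling). The 53 repair genes held between 0.390% and 0.424% of these counts. None of the annotated transcripts of DNM3OS was in the quantified set, so its knockdown was not analysed here. Of the 10 listed markers of ovarian carcinoma cells, KRT8 had 1195 to 2566 counts and ERBB2 311 to 872. Exons of these genes share 525 (KRT8) and 715 bases (ERBB2) with genes on the opposite strand. The others were lower, with 38 to 165 counts of KRT18, 19 to 184 of KRT19, 26 to 46 of PAX8, 16 to 32 of EPCAM and 4 to 12 of KRT7. MUC16, WT1 and MSLN, which many ovarian tumors express, stayed at 4 counts or fewer in all 6 samples. Of leukocyte, endothelial and fibroblast markers, 4 of 5, 1 of 4 and 3 of 6 were tested and 0 passed. The 4 tested leukocyte markers together held 109 to 139 CPM, most of it PTPRC (91 to 148 counts). The 77 cytosolic ribosomal protein genes held only 0.190% of the counts in knockdown sample 1 and 0.510% in control sample 1, the lowest and highest of the 6 samples. A single gene, PLLP, held 15.7% of the counts in knockdown sample 1 and 18.1% to 22.2% in the other samples. The TMM scaling factor was 1.18 in knockdown sample 1 and 0.927 to 1.02 in the other samples. The samples are of a single cell line, and where the counts on leukocyte, endothelial and fibroblast markers came from was not tested. In bulk RNA, fewer cells in a given state and less RNA per cell cannot be told apart.

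No repair gene passed the test between knockdown and control. Of the 53 genes, 46 had enough counts to be tested by edgeR's exact test, and 0 of 46 passed a Benjamini-Hochberg (BH) adjusted p of 0.05 at any fold, where the background was 0.00846% of 11814 genes (1 gene, BORCS7-ASMT, which is no repair gene and is named after its value was seen). The adjusted p from edgeR was 1 for every one of the 46. At an unadjusted p below 0.05 the count was also 0 of 46, against a background of 2.92%, and DESeq2 likewise gave 0. The mean was lower in the knockdown for 30 repair genes and higher for 16, which makes 65.2% lower against 49.4% of all genes tested. The median log2 fold change of the 46 genes was -0.12, against 0.00 over all genes tested. Log2 fold changes ran from -0.84 for PRKDC to 0.30 for XRCC3, and 41 of 46 were smaller than 0.5 in size, with a median standard error (SE) of 0.24.

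**Figure D1:**
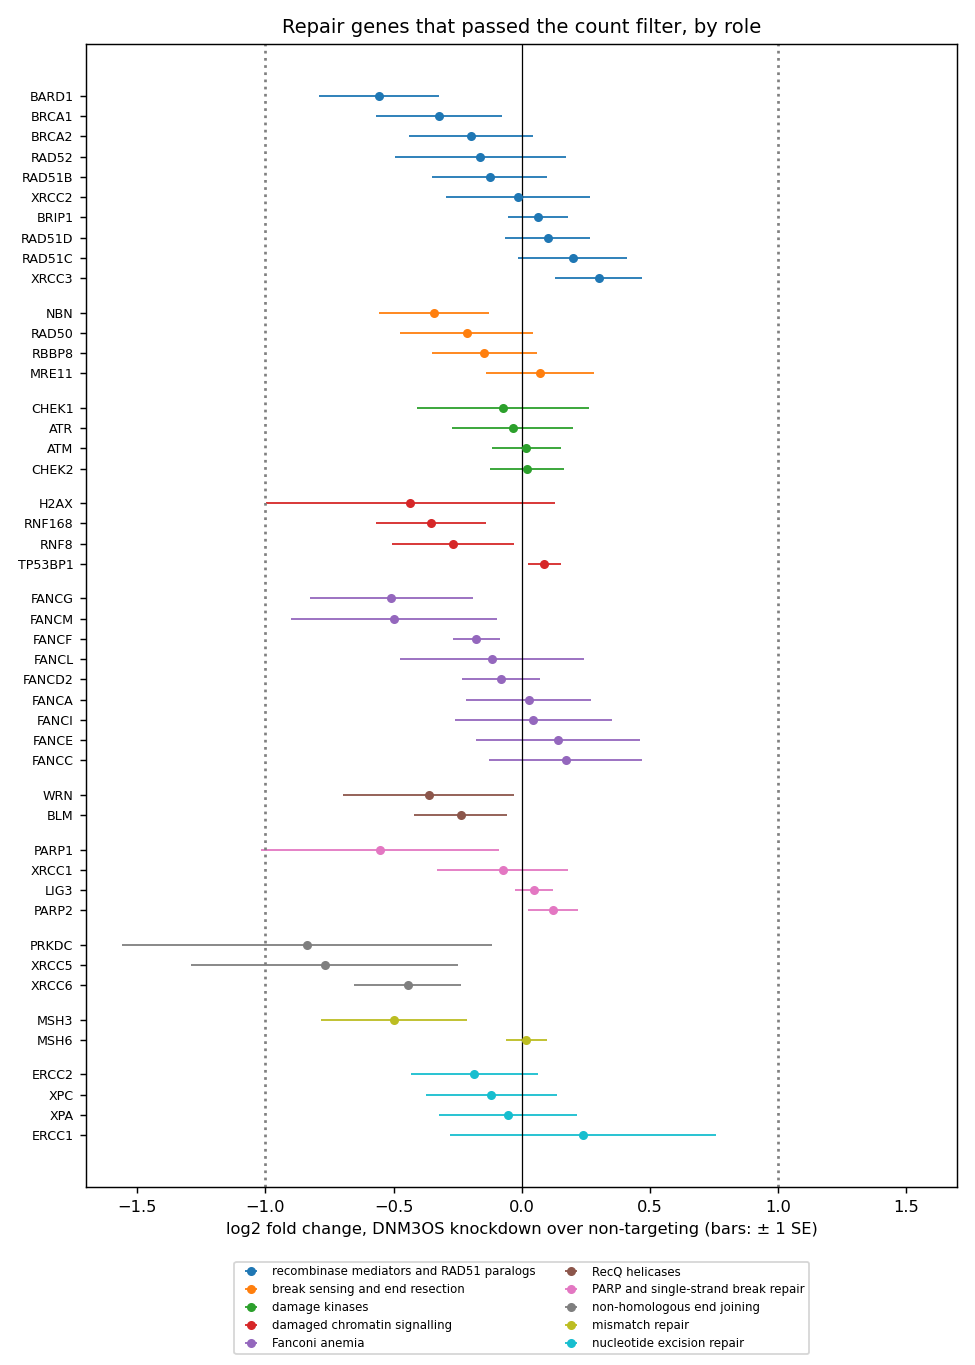
Log2 fold change (knockdown over control, x axis) of the 46 tested repair genes, grouped and colored by role, with bars of 1 SE in each direction and dotted lines at a 2-fold change. Every point lies between the dotted lines, from -0.84 for PRKDC to 0.30 for XRCC3, and PRKDC and XRCC5, both of end joining, lie farthest to the left.

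Promoter sequence was not used by the list and can be set beside the expression values. RefSeq (GRCh38.p14) gave 300 bases, 250 before and 50 after the start, for 48 of the 53 genes. The E2F-like letters TTCCCGC (or the variants TTGGCGC and TTCGCGC and TTGCCGC), the core bound by the E2F factors that drive S phase genes, stood on either strand in 24 of 48 (50%), against 13.0% of all 35116 promoters and 16.1% of those of protein-coding genes. The GC box GGGCGG was in 77.1% of the repair genes (all promoters 45.0%, coding 56.3%), CCAAT in 45.8% (all promoters 34.6%), and the cell cycle letters TTTGAA in 12.5% (all promoters 15.2%). The promoters of XRCC3, the only repair gene whose groups separated, and of PARP1 and XRCC6, which had among the larger differences, each hold one E2F-like match. They are printed 5′ to 3′ on the strand of the gene, with the match in capitals (chr14:103715402-103715701, minus strand, for XRCC3; chr1:226408044-226408343, minus strand, for PARP1; chr22:41621045-41621344, plus strand, for XRCC6).
XRCC3: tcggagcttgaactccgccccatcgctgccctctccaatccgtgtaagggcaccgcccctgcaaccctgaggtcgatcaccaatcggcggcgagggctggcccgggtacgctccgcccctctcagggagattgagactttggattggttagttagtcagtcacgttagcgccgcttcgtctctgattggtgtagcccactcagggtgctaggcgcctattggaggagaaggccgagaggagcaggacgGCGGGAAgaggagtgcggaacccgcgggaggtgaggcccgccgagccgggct
PARP1: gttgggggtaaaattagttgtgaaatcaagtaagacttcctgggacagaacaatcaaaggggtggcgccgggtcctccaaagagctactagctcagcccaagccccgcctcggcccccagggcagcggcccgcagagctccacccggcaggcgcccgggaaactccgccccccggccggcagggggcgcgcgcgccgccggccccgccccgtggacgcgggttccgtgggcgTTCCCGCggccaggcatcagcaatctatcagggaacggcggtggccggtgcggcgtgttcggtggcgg
XRCC6: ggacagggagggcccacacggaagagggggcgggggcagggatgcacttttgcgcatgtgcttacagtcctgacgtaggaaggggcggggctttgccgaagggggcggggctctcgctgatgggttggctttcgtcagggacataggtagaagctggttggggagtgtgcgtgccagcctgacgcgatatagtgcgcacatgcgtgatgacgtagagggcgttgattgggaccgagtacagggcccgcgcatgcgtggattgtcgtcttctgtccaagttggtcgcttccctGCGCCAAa
In XRCC3 the match lies across the start, in PARP1 before it and in XRCC6 after it. In XRCC3 and XRCC6 it reads on the opposite strand, so the capitals show its reverse complement. The 21 tested genes with a match had a median log2 fold change of -0.08, with 13 lower in the knockdown, and the 20 without one had -0.10, also with 13 lower. The 3 printed promoters are examples with a match. Of other genes with larger differences, BARD1 (log2 fold change -0.56) and FANCG (-0.51) had 1 match each and MSH3 (-0.50) had 2. FANCM (-0.50) and H2AX (-0.44) had none. A match is a description of the sequence, not a bound site.

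The listed genes of non-homologous end joining had the lowest median log2 fold change of any role, -0.77 over 3 tested genes. Further end joining genes outside the list did not share this. Of 7 such genes 5 were tested, with a median of 0.24, 2 lower and 3 higher. XRCC5 and XRCC6 encode the Ku80 and Ku70 proteins that clamp onto broken ends, and PRKDC encodes the kinase DNA-PKcs that Ku recruits. PRKDC had 29, 76 and 71 counts in knockdown samples 1 to 3 and 160, 56 and 128 in control samples 1 to 3. Knockdown sample 1 was the lowest and control sample 1 the highest, and control sample 2 lay below knockdown samples 2 and 3, so the groups overlapped. The log2 fold change was -0.84 (SE 0.72). XRCC5 had 33, 63 and 51 counts in the knockdown and 112, 51 and 103 in the control, a log2 fold change of -0.77 (SE 0.52), and its unadjusted p of 0.0518 by edgeR's exact test was the smallest of the 46. Its order of samples had the same ends as that of PRKDC. XRCC6 had 157, 110 and 90 counts in the knockdown and 201, 110 and 170 in the control, a log2 fold change of -0.45 (SE 0.21). Again control sample 2 fell among the knockdown samples, while control samples 1 and 3 were above all of them. Exact permutation tests on log2 CPM gave a two-sided p of 0.3 for each of PRKDC, XRCC5 and XRCC6, where 0.1 is the smallest that 3 against 3 samples allow. The other end joining genes, XRCC4 and LIG4, which form the ligase complex that seals the ends, did not pass the filter, with 1, 2 and 7 counts of XRCC4 in the knockdown and 13, 4 and 13 in the control, and 0, 2 and 3 counts of LIG4 against 7, 1 and 3.

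Over the 3 tested end joining genes the summed level was 102, 168 and 149 CPM in the knockdown and 269, 142 and 236 CPM in the control. The same samples were at the ends of a list of proliferation markers, of which 13 of 14 tested (of 16 listed) had a lower mean in the knockdown and 0 passed the adjusted test. The summed level of the 14 tested markers was 206, 372 and 373 CPM in the knockdown and 602, 329 and 505 CPM in the control. Of the 14, 4 had an unadjusted p below 0.05 by edgeR's exact test (MKI67, TOP2A, CCNB1 and MCM6). Over all genes tested, 49.4% had a lower mean and 2.92% such a p. CCNE1 and E2F1 of this list had too few counts. The authors reported similar rates of proliferation for knockdown and control cells. The part of proliferation in the end joining values was not tested. With the ribosomal protein share, which had the same samples at its ends, as a covariate, the log2 fold changes of PRKDC, XRCC5 and XRCC6 were 0.072, -0.084 and -0.23. PRKDC and XRCC5 nearly followed this share (rank correlation 0.943 each, 0.6 for XRCC6). Their shift is therefore built in and tests nothing. With counts scaled by transcript length the fold changes of PRKDC, XRCC5 and XRCC6 were -0.23, -0.41 and -0.16. Without knockdown sample 1 they were -0.41, -0.42 and -0.46. Without control sample 2, PRKDC, XRCC5 and XRCC6 each had an unadjusted p below 0.05 with log2 fold changes of -1.13, -1.004 and -0.60 by edgeR's exact test. PRKDC did so too without knockdown sample 2 or 3, and XRCC5 without knockdown sample 2, but no repair gene passed the adjusted test in any of these. Over all genes tested, the share with such a p also rose, to 7.15% without control sample 2. It was 4.43% without knockdown sample 2 and 4.91% without knockdown sample 3.

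**Figure D2:**
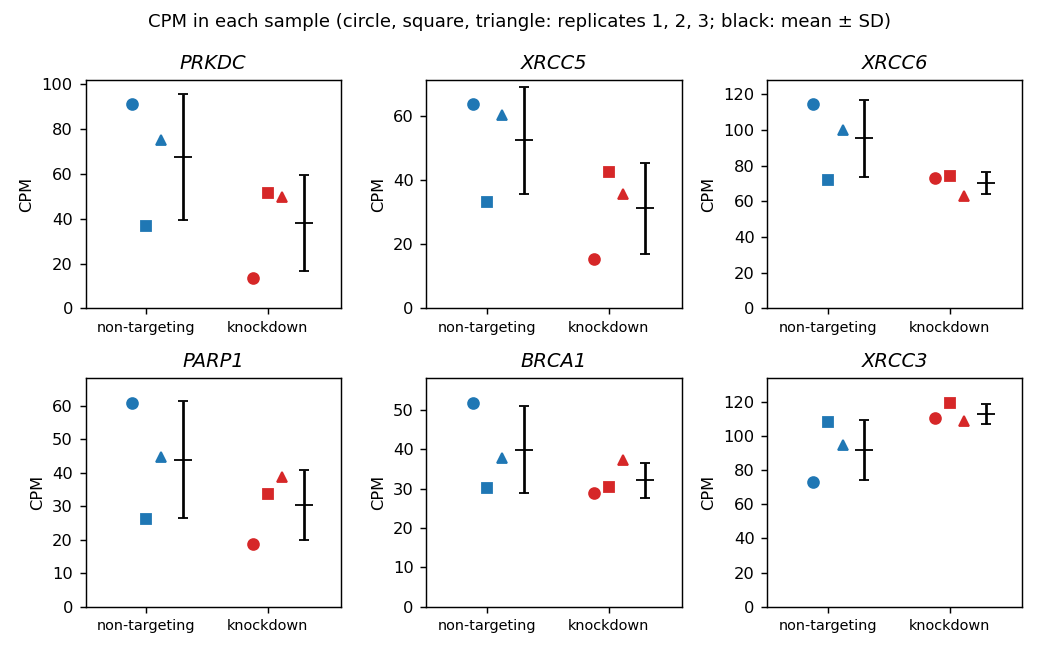
CPM (y axis, scaled by TMM) of 6 repair genes in each control (blue) and knockdown (red) sample, with replicate numbers as symbols and the mean with SD in black (n = 3 a group). In PRKDC, XRCC5 and PARP1, knockdown sample 1 is the lowest and control sample 1 the highest point. In XRCC3 the knockdown points lie between 108.8 and 119.5 CPM, above the control points at 72.9 to 108.0 CPM.

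Among the genes that load the recombinase, BRCA1 and BRCA2 showed no difference beyond the spread. BRCA1, which promotes end resection and recruits PALB2, had 62, 45 and 53 counts in the knockdown and 91, 46 and 64 in the control, a log2 fold change of -0.32 (SE 0.25). Its 3 lowest and 3 highest samples were drawn from both groups. BRCA2, which carries the recombinase to the resected strand, had 50, 20 and 28 counts against 36, 30 and 43, a log2 fold change of -0.20 (SE 0.24). In CPM control sample 3 was the highest (25.3) and knockdown sample 1 next (23.3), so the groups overlapped. PALB2, the bridge between both proteins, had 3, 5 and 7 counts in the knockdown and 16, 4 and 13 in the control and did not pass the filter. BARD1, the partner of BRCA1, had 10 to 13 counts in the knockdown and 11 to 22 in the control. RAD54L, which helps the recombinase to invade the duplex, had 0 counts in all knockdown samples and 2, 0 and 1 in the control, too few for a fold.

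The recombinase paralogs, which stabilize the recombinase on the resected strand, overlapped between the groups with the exception of XRCC3. XRCC3 had 238, 177 and 155 counts in the knockdown and 128, 165 and 161 in the control. Scaled to the library these were 110.7, 119.5 and 108.8 CPM against 72.9, 108.0 and 94.7 CPM, so every knockdown sample was above every control sample, with the nearest pair at 108.8 and 108.0 CPM. It was the only repair gene whose groups did not overlap, 1 of 46 with the knockdown higher (2.17%) against a background of 4.42% of all genes, and 0 of 46 with the knockdown lower against 3.56%. The log2 fold change was 0.30 (SE 0.17), and the exact permutation test gave a two-sided p of 0.1, the smallest possible. The groups of XRCC3 overlapped with RLE or DESeq2 size factors, with length-scaled counts, with no filter on counts, and when knockdown sample 1 or 2 or control sample 1 or 3 was left out and the libraries were scaled anew. RAD51C had 187, 79 and 87 counts against 99, 96 and 98, a log2 fold change of 0.20 (SE 0.21) that was -0.032 without knockdown sample 1. That sample also had the highest count of RAD51D (213 against 101 to 131 in the others) and of XRCC2 (345 against 129 to 210), and both genes overlapped between groups in CPM. RAD51B, RAD52 and BRIP1, a helicase that binds BRCA1, had 17 to 71 counts in all samples, with overlapping groups.

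The genes that sense and signal breaks showed no difference beyond the spread between samples. MRE11, the nuclease of the break-sensing complex, had 118, 51 and 51 counts against 71, 62 and 67 (log2 fold change 0.07, SE 0.21), and its highest and lowest samples were both knockdown samples. RAD50, NBN and RBBP8, which start resection with it, had 35 to 119 counts and also overlapped. The kinase ATM, which is activated at double-strand breaks, had 318, 183 and 176 counts against 247, 211 and 191 (0.02, SE 0.13), and ATR, which responds to single-stranded DNA, had 61, 46 and 36 against 67, 40 and 38 (-0.04, SE 0.24). The checkpoint kinase CHEK1, a target of ATR, had 99, 138 and 102 counts against 159, 104 and 105 (-0.07, SE 0.33), and CHEK2, a target of ATM, had 91, 68 and 60 against 62, 67 and 84 (0.02, SE 0.14). For all 4 kinases the groups overlapped in CPM, and each log2 fold change was smaller than its SE.

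On damaged chromatin, H2AX is the histone that is phosphorylated around a break and TP53BP1 shields ends from resection. H2AX had 19, 30 and 44 counts in the knockdown and 47, 27 and 60 in the control (log2 fold change -0.44, SE 0.56), the widest spread after PRKDC among the genes given in full. TP53BP1 had 791, 547 and 488 counts against 561, 553 and 569, and a log2 fold change of 0.09 with an SE of 0.06, and its groups overlapped. RNF8 and RNF168, the ubiquitin ligases that follow H2AX, had 22 to 85 counts and overlapped, and MDC1, the scaffold that reads phosphorylated H2AX, had at most 3 counts in a sample.

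The Fanconi anemia genes, whose products unhook DNA crosslinks, gave 5 lower and 4 higher means among 9 tested. FANCD2 and FANCI form the pair that is ubiquitinated at a crosslink. FANCD2 had 78, 45 and 36 counts against 59, 52 and 52 (log2 fold change -0.08, SE 0.15), and FANCI had 295, 337 and 357 against 418, 257 and 320 (0.05, SE 0.31), and in CPM all control samples of both genes lay inside the range of the knockdown samples. FANCL, the ubiquitin ligase of the pathway, had 429, 578 and 637 counts against 626, 600 and 634 (-0.12, SE 0.36), where knockdown sample 1 alone was low. FANCM, the helicase that recognizes the crosslink, had 19, 4 and 6 counts against 13, 12 and 14 (-0.50, SE 0.40), with knockdown sample 1 the highest and the other knockdown samples the lowest. FANCA, FANCC, FANCE, FANCF and FANCG of the core complex had 12 to 228 counts and overlapped, and FANCB had at most 4 counts. The RecQ helicases, which dissolve crossed strands, were near the bottom of what could be tested, with 10, 10 and 10 counts of WRN against 18, 7 and 14, and 18, 15 and 10 counts of BLM against 19, 17 and 14.

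Among the remaining repair pathways, PARP1, the sensor of single-strand breaks and the target of PARP inhibitors, had 40, 50 and 55 counts in the knockdown and 107, 40 and 76 in the control. Its log2 fold change was -0.55 (SE 0.46), with control sample 2 among the knockdown samples. PARP2, XRCC1 and LIG3, which act in the same pathway, had 31 to 55, 9 to 16 and 360 to 483 counts over the 6 samples and overlapped between groups. MSH6, which recognizes mismatches, had 1291, 885 and 896 counts against 1002, 1019 and 964 (0.02, SE 0.08). The protein that recognizes larger loops, MSH3, had 66, 91 and 65 counts against 118, 93 and 110 (-0.50, SE 0.28). In CPM, knockdown sample 2 of MSH3 (61.5) lay just above control sample 2 (60.9), so the groups overlapped. PMS2, the nuclease subunit that follows MSH6 and MSH3, had at most 1 count in a sample. In nucleotide excision repair, ERCC1, a subunit of the nuclease that cuts beside the lesion, had 774, 1082 and 1512 counts against 938, 712 and 1395 (0.24, SE 0.52), a difference smaller than the range within either group. XPC, which recognizes the lesion, had 15, 12 and 17 counts against 21, 13 and 14 (-0.12, SE 0.26), and ERCC2 and XPA had 57 to 119 counts with overlapping groups.

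Per length, FANCL had the highest level of the 53 genes, with 437 ± 139 TPM (length-normalized abundance) in the knockdown and 481 ± 14.9 TPM in the control (SD, n = 3 each). ERCC1 followed with 374 ± 136 and 317 ± 98.3 TPM, and XRCC6 with 210 ± 58.2 and 232 ± 19.8 TPM. FANCL and ERCC1 did not differ from each other beyond these SDs in the knockdown. The lowest tested genes were WRN, with 1.69 ± 0.22 and 2.14 ± 0.82 TPM, BLM with 3.97 and 3.02 TPM and FANCM with 2.71 and 4.26 TPM. These levels depend on which transcript received the counts. In FANCD2, for instance, the level was 83.7 ± 111 TPM in the knockdown, where the SD exceeds the mean although the gene's counts were 36 to 78.

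Many of the counts were not assigned to the main coding transcripts. For 10 of the 46 tested genes, under 50% of counts lay on transcripts annotated as protein-coding. For ATR, 87.5% lay on a transcript that retains an intron, and for NBN 90.8% on a transcript marked for nonsense-mediated decay. CHEK2 had 5.03% of its counts on protein-coding transcripts and H2AX 15.7%. XRCC6 had 52.0% on a transcript of 550 bases that retains an intron. In contrast, TP53BP1 had 98.9%, MSH6 94.5% and CHEK1 95.3% on one protein-coding transcript, although for CHEK1 the representative (MANE) transcript took only 2.13%. Over the 44 tested genes with a MANE transcript in the files, its median share was 56.4%, and it took under 50% in 20 of them.

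**Figure D3:**
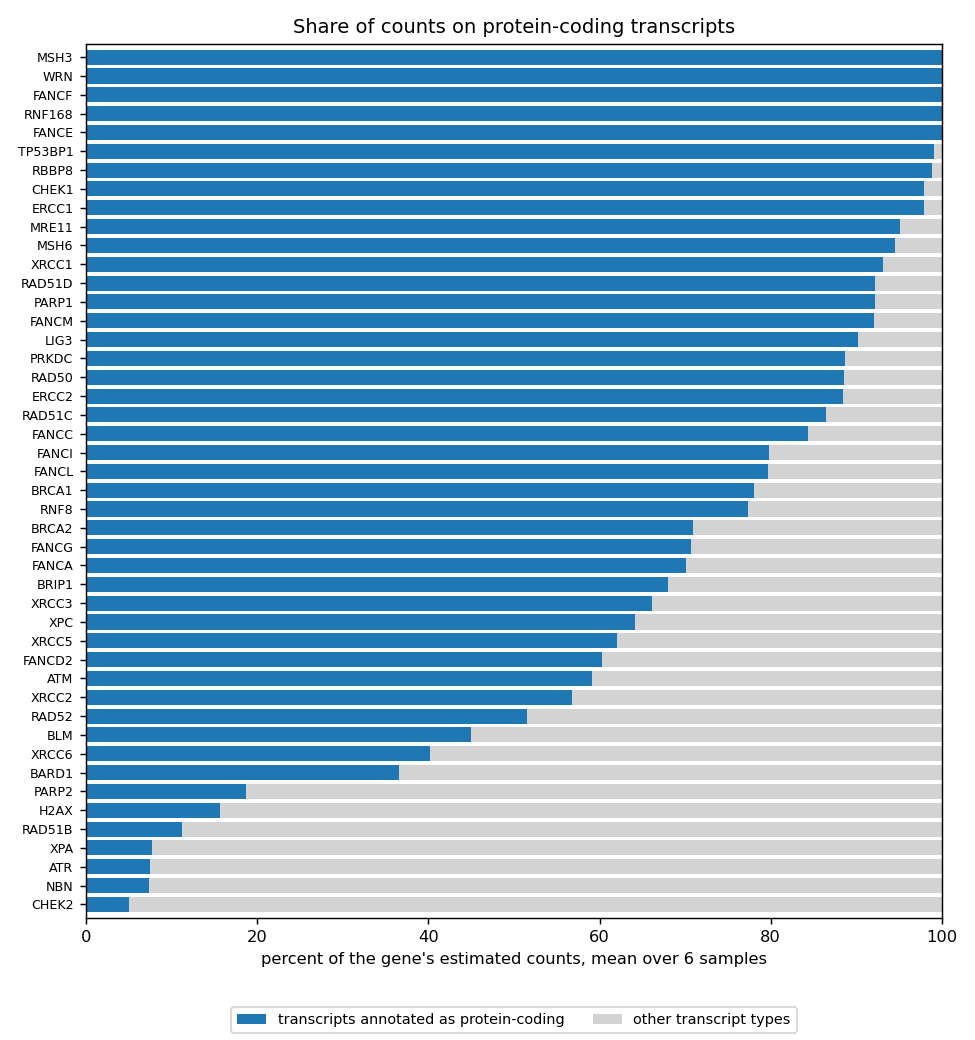
Share of each tested gene's estimated counts (x axis, percent, mean over 6 samples) on transcripts annotated as protein-coding (blue) and on other transcript types (grey). The shares run from 5.03% in CHEK2 to 100% in MSH3 and others, and 10 genes are under 50%.

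The repair genes with the most counts overlapped genes on the other strand. Exons of 25 of the 53 genes shared more than 200 bases in all with exons of other genes on the opposite strand, and 23 of the 46 tested did (50%, against 31.2% of all tested genes). The 5 genes with the highest counts, ERCC1, MSH6, TP53BP1, FANCL and LIG3, were all among them and held 52.9% of the counts on repair genes. Among the 10 highest, 9 were among them, the exception being XRCC2. Tested repair genes with such an overlap had a median of 90.5 counts and those with none a median of 50 counts, and for all tested genes the medians were 55.5 and 29.2. XRCC3 (chr14:103697609-103715504, minus strand) shared 5756 bases with KLC1, a kinesin light chain gene that had 704 to 1000 counts and a log2 fold change of 0.08. ERCC1 shared 1593 bases with the polymerase subunit gene POLR1G, TP53BP1 3732 bases with TUBGCP4, LIG3 3754 bases with RFFL and MSH6 4022 bases with FBXO11. These bases cover all exons of the gene, and the transcript with the most counts shared fewer in some genes, 530 bases in MSH6 and 850 in XRCC3 as annotated. For ATR, the overlap of 2048 bases was with a pseudogene, EIF2AK1P1. The libraries were stranded, and no source used here says with which strand setting they were counted. Without strand, reads of a repair gene and of its partner cannot be told apart at these bases. With the setting for the other strand, counts of any gene would be reads of the strand opposite to it, also where no opposite exon is annotated. Which of these settings holds, and whether it moved the fold changes, was not tested. The 17 tested repair genes with no opposite exon, which include XRCC5, XRCC6, PARP1 and BRCA2, had a median log2 fold change of -0.20, and the 23 with more than 200 bases had -0.07.

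**Figure D4:**
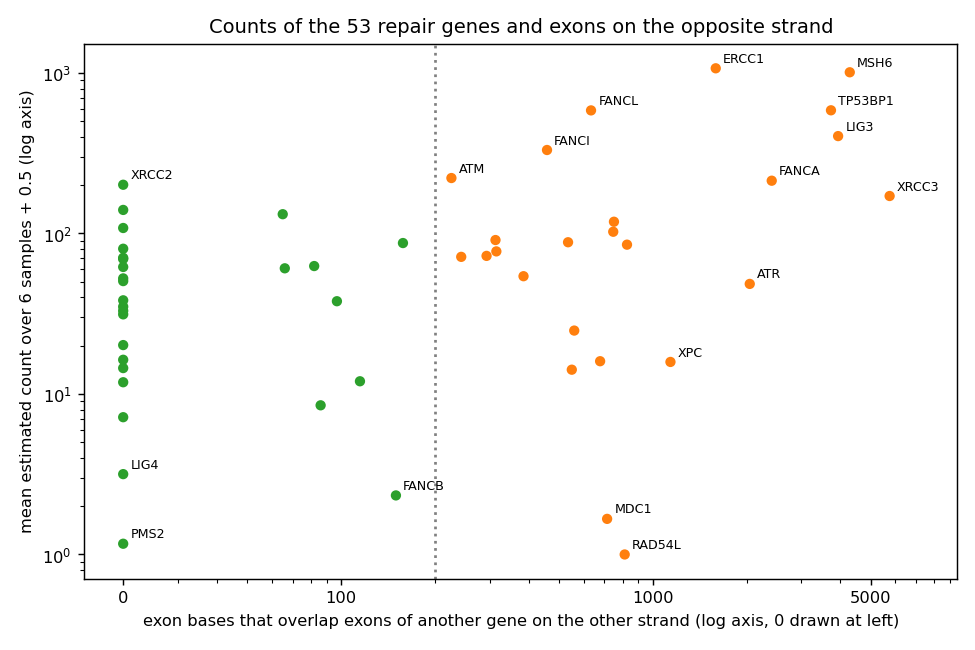
Mean estimated count over the 6 samples plus 0.5 (y axis, log scale) of the 53 repair genes against the exon bases that overlap exons of other genes on the other strand (x axis, log scale, 0 drawn at the left), with genes over 200 bases in orange and the rest in green. The 5 genes with the highest counts all lie to the right of the dotted line at 200 bases.

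Knockdown sample 1 and control sample 1 lay at the ends more often than the other samples. Knockdown sample 1 was the lowest of the 6 in 20 of 46 repair genes (43.5%, against 29.8% of all tested genes) and the highest in 12 (26.1%, against 28.0%). Control sample 1 was the highest in 14 (30.4%, against 19.8%). In 9 genes both held at once (19.6%, against 10.9%), namely BRCA1, NBN, RNF168, FANCF, PARP1, XRCC5, PRKDC, MSH3 and XPC. In BRCA1 and PARP1 all 6 samples stood in the order of their ribosomal protein share (2 of 46, 4.35%, against 2.23% of all tested genes). With this share as a covariate, the log2 fold change of PARP1 was 0.14 in place of -0.55. PARP1 is named here for following this share, so the shift is built in and tests nothing. The share was 0.190%, 0.350% and 0.364% in the knockdown and 0.510%, 0.286% and 0.491% in the control, so it is partly confounded with the treatment. Without knockdown sample 1, 8 repair genes had groups that did not overlap, and without control sample 2 it was 18 of 48, where the background rose to 18.1% and 27.8% of genes.

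Other genes of these pathways also gave no call. Of 106 further repair genes, 82 were tested, 0 passed the adjusted test of edgeR, 0 had an unadjusted p below 0.05, and 50 had a lower and 32 a higher mean in the knockdown, with a median log2 fold change of -0.07. Groups did not overlap in 4 of the 82, against 7.97% of all genes tested. SLX4, the scaffold of the nucleases that resolve crossed strands, had 75, 46 and 39 counts in the knockdown and 39, 35 and 36 in the control (log2 fold change 0.50, SE 0.10). DCLRE1C, the end joining nuclease Artemis, had 264, 189 and 186 counts against 175, 163 and 185 (0.27, SE 0.05). The helicase RECQL had 115, 132 and 113 counts against 173, 159 and 158 (-0.42, SE 0.22). WDR48, which activates the enzyme that deubiquitinates FANCD2, had 14, 18 and 18 against 28, 23 and 30 (-0.68, SE 0.28). Exons of RECQL, WDR48, SLX4 and DCLRE1C shared 1567, 1511, 329 and 159 bases with exons of genes on the opposite strand. The exact permutation test gave a two-sided p of 0.1 for each of the 4, the smallest possible, and their adjusted p from edgeR was 1.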

How the data were processed

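RNA of 3 DNM3OS knockdown and 3 non-targeting control samples of SKOV3 cells was sequenced by the authors from TruSeq stranded, rRNA-depleted libraries. The authors quantified the reads with kallisto 0.43.0 (Ensembl transcripts, GRCh38). The deposited values are an estimated count and a TPM per transcript. The strand option is not given in the sources used here.

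Of 173259 transcripts, 155518 were matched by identifier to GENCODE release 44. For the repair genes, 434 of 583 transcripts had the same length in both, and the deposited MSH6 transcript with the most counts was 3211 bases longer than in the annotation, so overlaps with opposite exons are those of release 44. Gene counts are sums of estimated counts, rounded. The samples, grouped by their titles, were compared with edgeR 4.0.16 (exact test, TMM, filterByExpr with a minimum count of 10, BH over 11814 genes), with R 4.3.3. CPM use TMM-scaled library sizes. SEs of log2 fold changes were computed between replicates on log2 CPM, with a prior count of 2. For single genes, exact permutation tests over the 20 assignments of the samples were two-sided. Samples differed by more than sampling noise (chi-square per degree of freedom at least 1.77), so all 6 were kept. The common biological coefficient of variation was 0.232. TPM were summed per gene and not tested.

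Genes given in full were the leading genes of each role, every gene whose groups did not overlap, and the 3 highest and 3 lowest by TPM. The members, the other lists, the tests and this rule were chosen with earlier results of these data known. The comparison was repeated with DESeq2 1.42.0, with quasi-likelihood fits in edgeR (with a replicate block or none), with RLE scaling, no filter, length-scaled counts, the ribosomal protein share as covariate, each sample left out, and only genes with no opposite exon. On counts simulated for 11426 genes of this comparison, the exact test recovered 99 of 100 genes changed by 2 on the log2 scale and 45 of 100 changed by 1. The changed genes were drawn only from those above a minimum mean count.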

Additional observations from a re-analysis of the deposited data

How the results depend on the processing

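No repair gene passed an adjusted p of 0.05 in any alternative, and the median log2 fold change of the repair genes stayed below 0 in all of them, from -0.16 to -0.09 on leaving out a sample. The 1 gene down at least 2-fold became 0 with the quasi-likelihood test, with DESeq2 and with the ribosomal protein share as covariate, 2 with no filter and 4 with length-scaled counts, which also gave 2 genes up in place of 0. Leaving out a sample gave 0 to 3 down and 0 to 1 up. Repair genes with an unadjusted p below 0.05 became 1 with RLE scaling and with no filter (XRCC5 in both) and 1 with the covariate (ERCC1). Leaving out a sample gave 0 to 6, the 6 without control sample 2 being PALB2, PARP1, PRKDC, XRCC4, XRCC5 and XRCC6, where 7.15% of all genes passed. The 1 repair gene with groups apart became 0 with no filter, with length-scaled counts and among genes with no opposite exon, and with RLE scaling or DESeq2 it was MSH3 in place of XRCC3. Leaving out a sample gave 0 to 18. The replicate numbers did not pair the samples (same-number correlations of deviations -0.396, -0.336 and 0.233). With the replicate block the quasi-likelihood test called 0 genes down, 0 repair genes at an adjusted and 0 at an unadjusted p of 0.05. Not every sample correlated best with its own number.

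Of the 24 log2 fold changes given in full by the rule above, 18 changed sign somewhere, none of them past the adjusted test. With length-scaled counts they were ATM -0.17, BLM 0.44, BRCA1 0.12 and CHEK2 -0.064. With the covariate they were ATM -0.10, ATR 0.059, CHEK1 0.20, FANCL 0.067, H2AX 0.26, MRE11 -0.16, MSH6 -0.053, PARP1 0.14, PRKDC 0.072, RAD51C -0.057, WRN 0.25 and XPC 0.17. The covariate is partly confounded with the treatment, so these sign changes by themselves test nothing. Leaving out a sample, ATM ran from -0.090 to 0.071, ATR from -0.20 to 0.22, CHEK1 from -0.34 to 0.18, CHEK2 from -0.11 to 0.13, ERCC1 from -0.16 to 0.57, FANCD2 from -0.22 to 0.038, FANCI from -0.12 to 0.28, FANCL from -0.35 to 0.17, MRE11 from -0.18 to 0.19, MSH6 from -0.034 to 0.11, RAD51C from -0.032 to 0.34 and XPC from -0.36 to 0.075. The causes were not tested. The median tested repair gene had 70.5 counts. In simulated data 45 of 100 genes changed by 1 on the log2 scale were recovered, and smaller changes were not simulated. Changes were placed only in genes above a minimum mean count, which WRN (mean 11.5 counts), FANCM (11.3) and other tested repair genes did not reach. With 100 genes changed at each size the BH threshold is easier to pass than here, so recovery for the repair genes may be lower.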
